A study of Mus musculus with 2 samples.

Results

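Acetylation of histone H3 was examined over the genomic neighbourhoods of 5 genes that direct T helper 1 (Th1) differentiation, Tbx21, Stat4, Il12rb2, Runx3 and Eomes, in cells grown under conditions for the opposing Th2 fate. The members were the 1-kb bins of 1 fixed mm9 window per gene, 520 bins of the 2246042 covered bins of the genome. One library was an immunoprecipitate with an antibody against acetylated histone H3 (H3KAc), and the control was one with non-specific polyclonal rabbit IgG. Both came from CD4+CD62L+ spleen cells of C57BL/6 mice, stimulated for 5 days through CD3 and CD28 with 10 ng/ml IL-4 and 2 µg/ml anti-IFN-g and then rested for 3 days. There was 1 library per antibody and no Th1 or naive library was analysed here, so differences have no replicate check, no p-value is given, and levels are not set against another cell type. The signal is an average over the cell population, in which fewer cells with the mark and less mark per cell cannot be told apart. The Th2 label was not checked against marker genes, because no annotation of the mm9 build was used here.

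In Th1 differentiation, interleukin 12 binds a receptor whose signalling chain is encoded by Il12rb2. The receptor activates the transcription factor STAT4, the product of Stat4. T-bet, encoded by Tbx21 and often called the master regulator of Th1 cells, drives interferon gamma expression, and RUNX3 acts together with it and helps to silence Il4. EOMES is a T-box factor related to T-bet, best known in CD8 T cells and natural killer cells. Acetylation of histone H3 is a mark of active or permissive chromatin and is usually concentrated at promoters and enhancers.

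The promoters of these genes differ in base composition, and they are shown here as the regulatory sequence that the genes themselves carry. RefSeq (GRCm38.p6) lists 1 start site each for Tbx21, Il12rb2 and Eomes and 2 each for Stat4 and Runx3, and all 5 genes were matched. The 250 bases before the start site held 38 CG dinucleotides at the second, downstream Runx3 start site and 8 at its first, upstream one. They held 16 at Tbx21, 10 at Il12rb2, 8 at Eomes, and 1 and 3 at the first and second Stat4 start sites. The median over 32851 promoters was 6. Fewer CG dinucleotides than the second Runx3 promoter were held by 98.1% of promoters, and fewer than the Tbx21 promoter and the first Stat4 promoter by 74.6% and 7.87%. The sequences at the ends of this range follow, together with Tbx21 and the first Runx3 promoter, 5′ to 3′ and with each CG in capitals. They lie on GRCm38.p6 at chr11:97115332-97115581 (minus strand, Tbx21), chr1:51986898-51987147 (plus strand, Stat4), chr4:135120395-135120644 and chr4:135152295-135152544 (plus strand, Runx3).
Tbx21: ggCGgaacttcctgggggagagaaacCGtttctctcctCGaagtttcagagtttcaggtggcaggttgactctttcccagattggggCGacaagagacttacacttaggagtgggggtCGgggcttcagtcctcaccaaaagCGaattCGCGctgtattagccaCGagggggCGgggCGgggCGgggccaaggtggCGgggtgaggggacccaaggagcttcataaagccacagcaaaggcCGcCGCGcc
Stat4, first start site: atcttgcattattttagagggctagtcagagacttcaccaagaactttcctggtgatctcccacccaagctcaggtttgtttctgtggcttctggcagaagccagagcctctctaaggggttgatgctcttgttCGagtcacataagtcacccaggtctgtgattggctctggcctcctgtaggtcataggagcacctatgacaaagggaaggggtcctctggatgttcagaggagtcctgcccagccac
Runx3, first start site: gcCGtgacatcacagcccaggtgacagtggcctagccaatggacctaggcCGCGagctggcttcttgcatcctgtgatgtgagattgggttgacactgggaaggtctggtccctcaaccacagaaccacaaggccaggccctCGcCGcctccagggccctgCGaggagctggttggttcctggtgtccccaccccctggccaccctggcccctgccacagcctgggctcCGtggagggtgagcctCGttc
Runx3, second start site: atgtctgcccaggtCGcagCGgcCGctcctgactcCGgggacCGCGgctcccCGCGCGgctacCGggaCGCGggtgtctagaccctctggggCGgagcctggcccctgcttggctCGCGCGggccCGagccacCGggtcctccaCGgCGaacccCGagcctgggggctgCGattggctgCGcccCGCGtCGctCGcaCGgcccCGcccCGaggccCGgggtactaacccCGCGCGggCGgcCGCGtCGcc
The STAT motif TTCNNNGAA, which reads the same on both strands, matched 1 time in the Il12rb2 promoter and in none of the other 6, against 7.02% of all promoters. The RUNX motif TGTGGT, searched on both strands, matched 2 times in the first Runx3 promoter and in none of the other 6, against 14.0% of all promoters. The T-box motif AGGTGTGA, searched on both strands, matched in none of the 7, against 1.12% of all promoters. The STAT and RUNX matches lie in different promoters and so do not overlap, and they describe letters and not bound sites. The reads are on mm9 and no start site was placed in the windows, so no bin below is assigned to a promoter.

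The windows differed widely in H3KAc, and IgG differed with it. Levels are reads at distinct positions per 1000000 such positions of the library (RPM), here per kb of window, with exact Poisson 95% intervals that cover counting error only. The Runx3 window (chr4:134640001-134760000, mm9) had 1.45 RPM per kb in H3KAc (1.41 to 1.503) and 1.76 RPM per kb in IgG (1.59 to 1.94). The Tbx21 window (chr11:96930001-97000000) had 1.21 RPM per kb in H3KAc (1.15 to 1.26) and 1.05 RPM per kb in IgG (0.887 to 1.24). The Eomes window (chr9:118360001-118420000) had 0.715 RPM per kb in H3KAc (0.668 to 0.765) and 0.650 RPM per kb in IgG (0.510 to 0.816). Those 3 windows lay above the mean of all covered bins, 0.445 RPM per kb in either library. The Stat4 window (chr1:52010001-52170000) had 0.419 RPM per kb in H3KAc (0.397 to 0.442) and 0.306 RPM per kb in IgG (0.247 to 0.375). The Il12rb2 window (chr6:67230001-67340000) had 0.416 RPM per kb in H3KAc (0.389 to 0.444) and 0.292 RPM per kb in IgG (0.224 to 0.375). In H3KAc per kb the order was therefore Runx3, Tbx21, Eomes, Stat4 and Il12rb2, and of these only the intervals of Stat4 and Il12rb2 overlapped.

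Set against IgG, the order of the windows changed. The ratio of H3KAc over IgG RPM, with its exact conditional binomial (Clopper-Pearson) 95% interval, was 1.42 (1.10 to 1.87) over the Il12rb2 window and 1.37 (1.11 to 1.71) over the Stat4 window. It was 1.14 (0.961 to 1.37) over the Tbx21 window and 1.10 (0.867 to 1.42) over the Eomes window, both intervals including 1. Over the Runx3 window it was 0.828 (0.746 to 0.920), below 1. With plus-strand reads alone the intervals of Il12rb2 and Stat4 also included 1, and with all reads as deposited, copies counted, that of Eomes lay above 1. The interval of Runx3 lay below those of Tbx21, Stat4 and Il12rb2 and overlapped that of Eomes, and the other 4 intervals overlapped each other. Each library is scaled to its own total, so a ratio near 1 means a share of reads like that of the IgG library and not an absence of the mark. Over all 520 bins together the ratio was 1.02 (0.951 to 1.10).

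**Figure D1:**
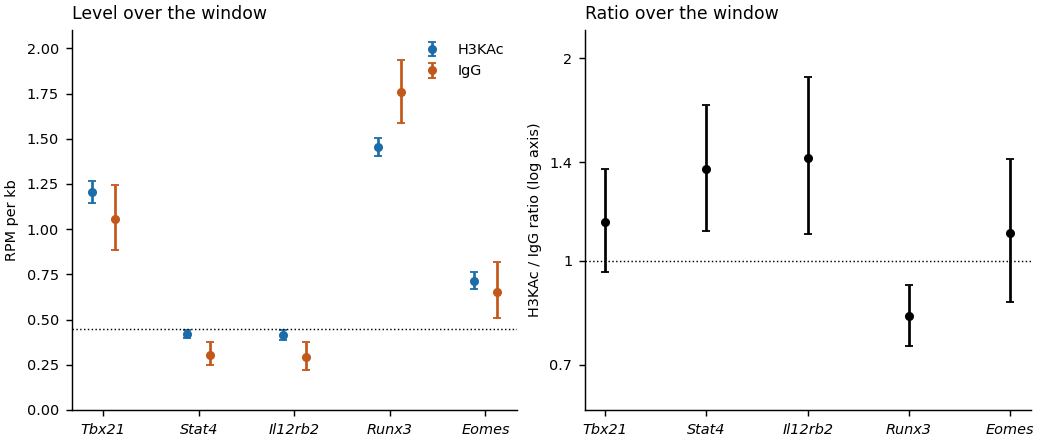
Left, level over each window in RPM per kb for H3KAc (blue) and IgG (orange), with exact Poisson 95% intervals and the mean of all covered bins (0.445) as a dotted line. Right, H3KAc over IgG ratio with its 95% interval on a log axis: Runx3 is highest in both libraries, and its ratio of 0.828 is the one whose interval lies below 1. The ratio of the Runx3 flanks, not shown, was also below 1.

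Among stretches of the same width laid end to end on the autosomes, 98.9% of 12053 stretches had fewer H3KAc positions than the Runx3 window, and 96.0% of 21058 had fewer than the Tbx21 window. The share was 75.4% for Eomes, 35.7% for Il12rb2 and 34.9% for Stat4. The windows were chosen around genes, and the stretches were not matched to them in gene content or base composition. In the flanks, 1 window width on each side, H3KAc was 1.02 RPM per kb around Runx3, 1.26 around Tbx21, 0.679 around Eomes, 0.502 around Stat4 and 0.345 around Il12rb2. The high level of the Tbx21 window was thus shared by its flanks, whereas the Runx3 window lay above its own. IgG also lay higher in the Runx3 window than in its flanks, at 1.76 and 1.18 RPM per kb. The H3KAc over IgG ratio of the Runx3 flanks was 0.866 (0.791 to 0.948), below 1 as in the window. The flank ratio was 1.07 (0.954 to 1.21) for Tbx21, 1.08 (0.953 to 1.22) for Stat4, 1.19 (0.988 to 1.44) for Il12rb2 and 1.005 (0.851 to 1.19) for Eomes. Each of these intervals overlapped that of its window. The part of sequence composition and mappability in these levels was not tested.

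Per bin, the windows with high averages were high in most of their bins. The H3KAc count had a median of 26 distinct positions per bin in the Runx3 window (lowest 0, highest 137) and a median of 21 in the Tbx21 window (3 to 97). In the Eomes window the median was 10.5 (0 to 101), in the Stat4 window 7 (0 to 59) and in the Il12rb2 window 6.5 (0 to 64), against 6 over all covered bins. Above that genome median lay 94.2% of the Runx3 bins and 92.9% of the Tbx21 bins, but 85 of 160 Stat4 bins and 55 of 110 Il12rb2 bins. Eomes lay between, with 76.7% of its bins. The median IgG count per bin was 3 at Runx3 (0 to 13), 2 at Tbx21 (0 to 9), 1 at Eomes (0 to 6) and 0 at Stat4 (0 to 5) and Il12rb2 (0 to 4). No IgG read fell in 244 of the 520 bins, so single-bin ratios are imprecise.

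**Figure D2:**
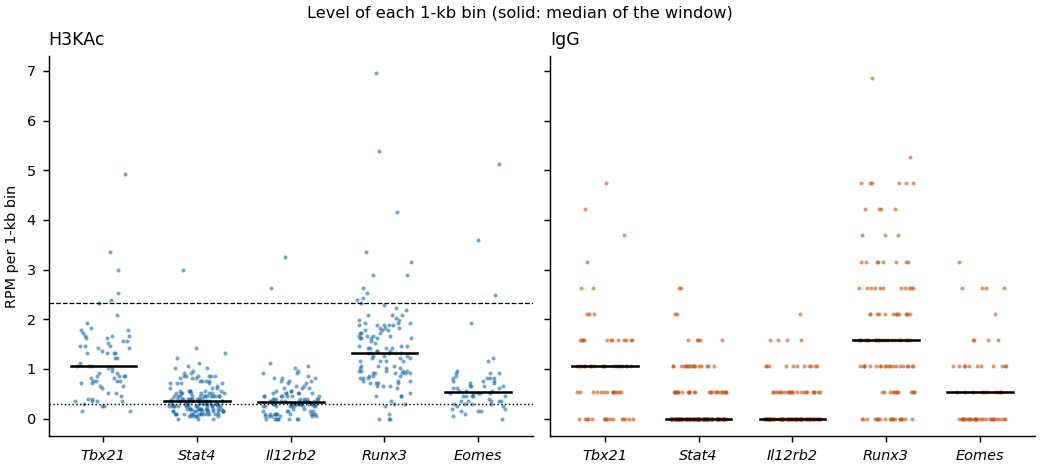
Each point is a 1-kb bin, in RPM, for H3KAc (left) and IgG (right), the solid bars are window medians, and in the H3KAc panel the dotted line is the median and the dashed line the 99th percentile (2.33 RPM) of all covered bins. Most Stat4 and Il12rb2 bins lie near the genome median, with 1 and 2 points above the dashed line.

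Each window held at least 1 bin with a high H3KAc count, which alone is not a difference from IgG. A bin is called high here when its H3KAc count was at or above the 99th percentile of all covered bins, 46 distinct positions or 2.33 RPM. Of the 520 bins 24 (4.62%) were high, against 1.02% of all covered bins. They were 12 bins in the Runx3 window, 6 at Tbx21, 3 at Eomes, 2 at Il12rb2 and 1 at Stat4. The Stat4 share, 0.625% of its bins, and the Il12rb2 share, 1.82%, were near the background. Just inside the threshold lay 2 bins with 46 positions, and just outside it 1 bin with 45. The high bins held 26.1% of the H3KAc and 12.2% of the IgG positions of the Eomes window. They held 23.6% of H3KAc and 11% of IgG at Runx3, 22.0% and 10.0% at Tbx21, 12.9% and 1.64% at Il12rb2, and 4.47% and 2.15% at Stat4. These bins formed 14 runs of adjacent bins, which are described by window below. Each gene name there stands for its window, since no bin was assigned to a gene. Where the highest bin of a window is set against its other bins, it was chosen for its count. That fold lies above 1 by choice, and its interval does not allow for this. In the same way, leaving out bins chosen for high H3KAc lowers the ratio of the bins left.

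**Figure D3:**
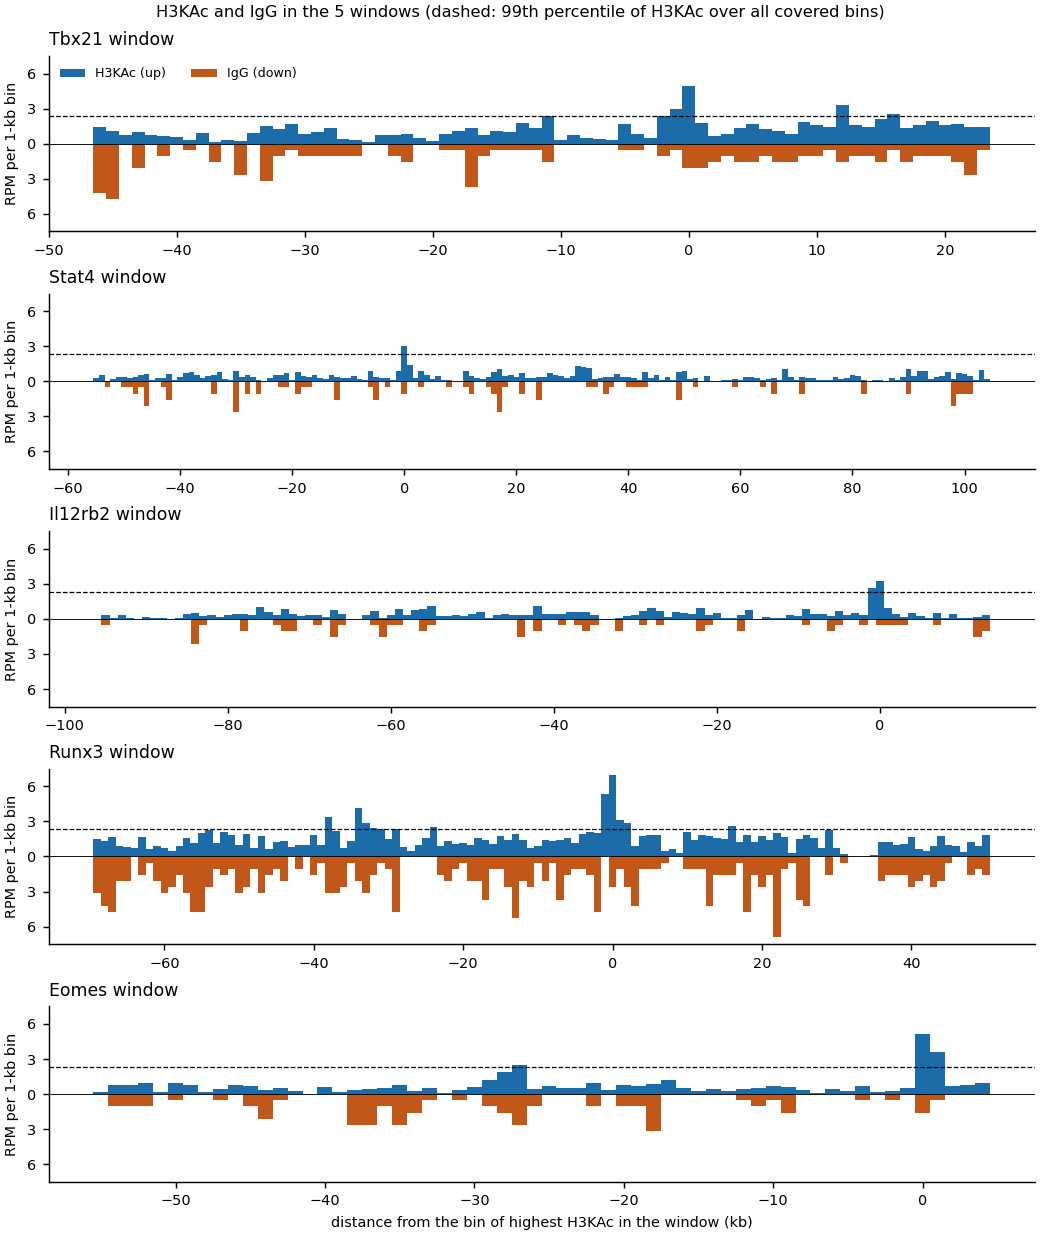
RPM per 1-kb bin across each window, H3KAc upward and IgG downward on the same scale, against the distance in kb from the bin of highest H3KAc, with the lower coordinate on the left and the 99th percentile of H3KAc (2.33 RPM) as a dashed line. Il12rb2 and Stat4 show a narrow peak over a low floor, while the peaks of Runx3 and Tbx21 stand on a broad raised level in which IgG is raised too. Eomes lies between them, with 0.556 RPM per kb of H3KAc and 0.601 of IgG outside its high bins.

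Il12rb2, the signalling chain of the interleukin 12 receptor, had a single peak of 2 adjacent high bins, chr6:67325001-67327000. The peak held 116 H3KAc positions (5.89 RPM, 4.86 to 7.06) and 1 IgG position (0.527 RPM), a ratio of 11.2 (1.97 to 445). Its higher bin, from 67326001, had 64 H3KAc positions, 8.34 times the mean of the other bins of the window (6.36 to 10.8). Its lower bin, from 67325001, had 52 H3KAc positions and no IgG position. A count of 0 allows up to 1.58 RPM (3 counts), and the lower bound of the ratio of this bin was 1.31. The next bin of the window by H3KAc, from 67284001 and 42 kb to the left, had 22 H3KAc and 2 IgG positions and a ratio of 1.06 (0.260 to 9.29). Beyond the peak the window was low, with 0.369 RPM per kb in H3KAc and 0.293 in IgG over the other 108 bins, a ratio of 1.26 (0.968 to 1.67). The strands were uneven in the bin from 67326001, with 43 plus and 21 minus positions, whereas the bin from 67325001 had 23 and 29. In 100-bp steps the peak was highest at -350 bp from the centre of the bin from 67326001, with 25 positions, so a bin boundary lies close to its top.

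Stat4, which carries the interleukin 12 signal to the nucleus, had 1 high bin of 160, chr1:52065001-52066000. It held 59 H3KAc positions (2.99 RPM, 2.28 to 3.86) and 2 IgG positions, a ratio of 2.84 (0.752 to 24.0). This was 7.43 times the mean of the other bins of the window in H3KAc (5.63 to 9.65). The bin to its right had 28 H3KAc positions and no IgG position. The next bin by H3KAc, from 52096001 and 31 kb to the right, had 26 H3KAc positions and no IgG position, and the bins after it had 24 and 22 H3KAc positions. Without the high bin the Stat4 window kept a ratio of 1.34 (1.08 to 1.67), so its excess over IgG did not rest on that bin. In 100-bp steps the peak held at most 9 positions. The interval of its high bin overlapped that of the highest Il12rb2 bin (2.50 to 4.15 RPM).

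Tbx21, the gene of T-bet, had its highest bin at chr11:96976001-96977000. It held 97 H3KAc positions (4.92 RPM, 3.99 to 6.00) and 4 IgG positions (2.11 RPM), a ratio of 2.34 (0.883 to 8.74). The bin stood at 4.28 times the mean of the other bins of the window (3.45 to 5.25), and 0.254% of covered bins had a count at least as high. Together with the 2 bins to its left it formed a run, chr11:96974001-96977000, with 202 H3KAc and 7 IgG positions and a ratio of 2.78 (1.32 to 7.00). The bin ranking next by H3KAc lay 12 kb to the right, from 96988001, with 66 H3KAc and 3 IgG positions. After it came a bin within the run, from 96975001, with 59 H3KAc positions and 1 IgG position. Single high bins from 96965001 and from 96992001 had 47 and 50 H3KAc positions and 3 and 1 IgG positions. The intervals of the ratio included 1 for all 3 single bins outside the run. Bins to the right of the run had 13 to 66 H3KAc and 1 to 5 IgG positions, and bins to its left 3 to 47 H3KAc and 0 to 9 IgG positions. Outside the high bins the ratio was 0.991 (0.825 to 1.20).

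**Figure D4:**
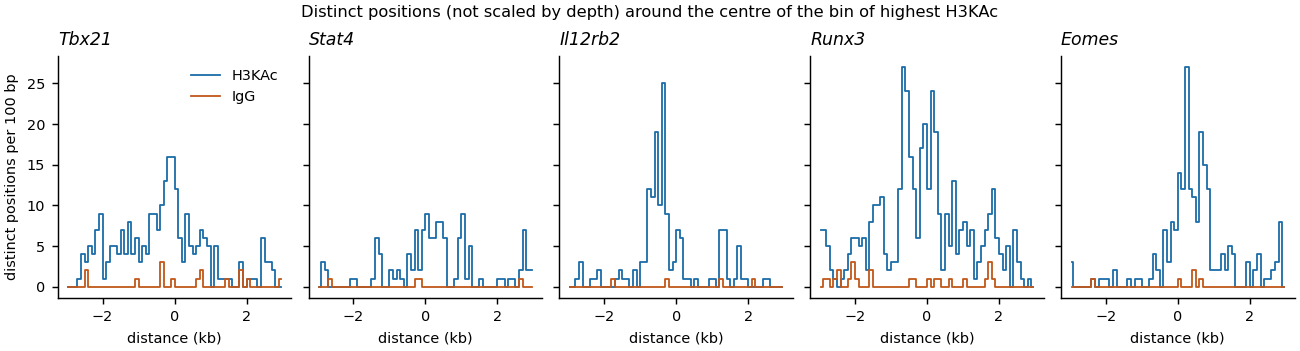
Distinct positions per 100 bp, not scaled by depth, within 3 kb of the centre of the highest bin of each window, for H3KAc (blue) and IgG (orange). The highest steps hold 27 H3KAc positions at Runx3 and Eomes, 25 at Il12rb2, 16 at Tbx21 and 9 at Stat4, and IgG steps hold 0 to 3.

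Runx3, which acts with T-bet, had the bin with most H3KAc positions of the 5 windows, although in 100-bp steps its highest value, 27 positions, equalled that of Eomes. With H3KAc thinned to the IgG depth in a single random draw, the highest Runx3 bin was at 3.69 RPM and the highest Eomes bin at 5.80 RPM. Few reads per bin remained in that draw, so it does not settle the order. At full depth the intervals of these bins, 5.83 to 8.22 and 4.17 to 6.23 RPM, overlapped. The Runx3 run chr4:134708001-134712000 held 362 H3KAc positions (18.4 RPM, 16.5 to 20.4) and 12 IgG positions (6.32 RPM), a ratio of 2.90 (1.64 to 5.67). From left to right its 4 bins had 106, 137, 62 and 57 H3KAc positions and 0, 5, 2 and 5 IgG positions. The bin from 134709001, at 6.95 RPM for H3KAc (5.83 to 8.22) and 2.63 RPM for IgG, had a ratio of 2.64 (1.10 to 8.25), and 0.0812% of covered bins had a count at least as high. The bin from 134708001 had 5.38 RPM in H3KAc (4.403 to 6.50) and no IgG position, and the lower bound of its ratio was 2.72. In 100-bp steps this run had 27 H3KAc positions at -650 bp and 24 at 150 bp from the centre of the bin from 134709001, with 6 at -250 bp between them. A second run of 4 bins lay 34 kb to the left, chr4:134675001-134679000. Its bins had 82, 57, 48 and 46 H3KAc positions and 4, 6, 3 and 1 IgG positions, and its ratio was 1.60 (0.936 to 2.98). The fourth bin of the window by H3KAc, from 134671001, had 66 H3KAc and 6 IgG positions and a ratio of 1.06 (0.462 to 2.99). High single bins also lay at 134680001, 134685001 and 134725001, with 47, 50 and 52 H3KAc positions and 9, 0 and 3 IgG positions. RefSeq lists 2 start sites for Runx3, printed above, and neither was assigned to a run. Outside the 12 high bins the ratio was 0.711 (0.636 to 0.796), a value that leaving out bins chosen for high H3KAc lowers. Over the whole Runx3 window it was 0.828, also below 1. The 3 adjoining bins from 134741001 to 134744000 held no read of either library.

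The Eomes window, named for the T-box factor of CD8 T cells and natural killer cells, had its peak near its right edge. The run chr9:118415001-118417000 held 172 H3KAc positions (8.73 RPM, 7.47 to 10.1) and 4 IgG positions (2.11 RPM), a ratio of 4.14 (1.59 to 15.4). Its bins had 101 and 71 H3KAc positions and 3 and 1 IgG positions, with ratios of 3.24 (1.08 to 15.98) and 6.84 (1.19 to 274). The higher bin, from 118415001, was 8.0 times the mean of the other bins of the window in H3KAc (6.43 to 9.86), and 0.229% of covered bins had a count at least as high. Another high bin, chr9:118388001-118389000, lay 27 kb to the left, with 49 H3KAc positions (2.49 RPM) and 5 IgG positions (2.63 RPM), a ratio of 0.943 (0.378 to 3.03). From left to right, this bin and the 2 to its left had 24, 38 and 49 H3KAc positions. Their IgG positions were 2, 3 and 5, too few to show a rise beyond counting error. Which gene the peak at the edge of the window lies in or beside was not determined. The next protein-coding gene to the right of Eomes in RefSeq (GRCm38.p6) is Golga4, so the peak is not credited to Eomes.

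**Figure D5:**
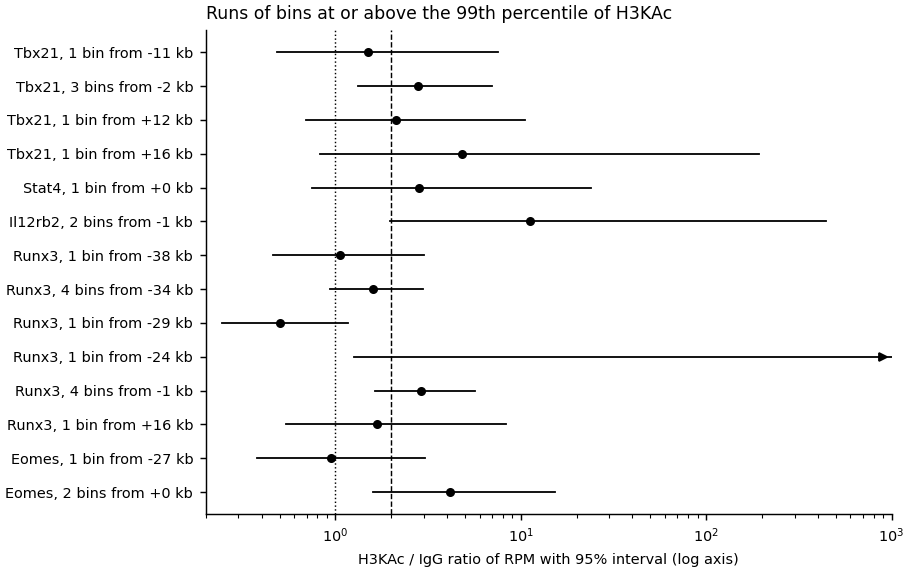
H3KAc over IgG ratio with its 95% interval, on a log axis, for the 14 runs of high bins, named by gene and by the distance of their first bin from the highest bin, with an arrow for a run without an IgG read and lines at ratios of 1 (dotted) and 2 (dashed). The lower bound lies above 1 for 5 runs, those that hold the highest bin of Tbx21, Il12rb2, Runx3 and Eomes and the single Runx3 bin at -24 kb.

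The 24 high bins together held 3.32 RPM per kb of H3KAc against 1.54 of IgG, which gave a ratio of 2.16 (1.70 to 2.79). The other 496 bins held 0.675 RPM per kb of H3KAc against 0.742 of IgG, which gave a ratio of 0.910 (0.842 to 0.985). These intervals did not overlap, but bins chosen on H3KAc reads favour a high ratio. When bins were chosen on plus-strand H3KAc reads and measured with minus-strand reads of both libraries, 21 high bins had a ratio of 1.73 (1.24 to 2.48) and the others one of 0.981 (0.878 to 1.10). With the strands exchanged, 24 high bins had a ratio of 2.08 (1.48 to 3.03) and the others one of 0.890 (0.798 to 0.996). Both strands come from the same 2 libraries and share their biases. IgG itself was higher in the high bins than in the others, and 3 of the 24 had no IgG read, in contrast to 241 of the other 496.

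By single bins, little could be told apart from IgG at this depth. A bin was called enriched when both libraries together held at least 5 positions and the lower bound of the ratio exceeded 2, and 1 of the 520 bins met this rule, against 0.0524% of all covered bins. It was the Runx3 bin from 134708001, with a lower bound of 2.72. The call rests on the absence of IgG reads in that bin, and it was lost with reads not moved along their strand, with either strand alone, with H3KAc thinned to the IgG depth and with 500-bp bins. It was also lost with IgG summed over the 11 bins around it, where its ratio was 2.74 (1.89 to 4.03). With a lower bound above 1, 7 bins were called, against 0.409% of covered bins. They were both bins of the Il12rb2 peak, both of the peak in the Eomes window, and the Runx3 bins from 134708001, 134709001 and 134685001. With IgG summed over the 11 bins around each bin and a lower bound above 2, 12 bins were called, against 1.35% of covered bins. Of these 5 were at Stat4, 2 each at Tbx21, Il12rb2 and Eomes, and 1 at Runx3, and 8 of the 12 were high bins. Under this rule the highest bins had ratios of 15.3 (7.15 to 39.0) in the Eomes window, 11.3 (4.91 to 31.9) at Il12rb2, 8.93 (4.07 to 23.2) at Stat4, 4.28 (2.72 to 7.00) at Tbx21 and 3.63 (2.53 to 5.30) at Runx3. Spreading IgG over 11 bins dilutes a rise of IgG in the bin itself. With IgG of the same bin each of these ratios was lower. It was then 2.84 (0.752 to 24.0) at Stat4 and 2.34 (0.883 to 8.74) at Tbx21, both intervals including 1. For Eomes, Il12rb2 and Runx3 the lower bound stayed above 1. The highest bin of every window was called with IgG over 11 bins. These bins were chosen for their H3KAc count, which favours a call. Local IgG was lowest where the ratios over 11 bins were high. It came to 7, 6 and 7 positions over 11 bins at Eomes, Il12rb2 and Stat4, 24 at Tbx21 and 40 at Runx3.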

How the data were processed

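Chromatin immunoprecipitation with sequencing was read from 1 H3KAc and 1 IgG library. The cells were crosslinked in 0.4% formaldehyde, 7 µg of antibody was used, and fragments of about 200 bp were sequenced, per the labels' protocols. The authors deposited 1 line per aligned read with chromosome, 35-base interval and strand, and no level. Alignment was with Bowtie to mm9, per the submitters' processing notes. In the sources used here its version, filters and the handling of reads with several alignments are not given. The H3KAc library held 21845451 reads at 19711169 distinct positions (1.11 reads per position) and the IgG library 7626703 reads at 1897666 (4.02), so IgG limits every ratio.

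Reads sharing chromosome, 5′ end and strand were counted once, moved 100 bp along their strand and assigned to 1-kb bins. Ratios and calls were computed over all covered bins of the genome, those with a read in either library. Stretches of the width of a window were used where at least 0.9 of their bins were covered. The genes, windows, gene roles and rules were chosen with earlier results of these data known. The bins named are the 3 highest in H3KAc per window, all enriched bins, all runs at or above the 99th percentile and the bin of most IgG reads; a few neighbours of these, and the bins with a lower bound above 1, were named after their values were seen. Gene names and promoters came from RefSeq (GRCm38.p6), and none of its coordinates were converted. Alternatives are given in the closing section, of which the measurement on opposite strands was chosen after seeing the data. Counting used pandas 2.3.3 and numpy 2.4.6 under Python 3.11.15, intervals used scipy 1.17.1 and plots used matplotlib 3.10.9. All intervals cover counting error only.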

Additional observations from a re-analysis of the deposited data

How the results depend on the processing

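Of 82 values recomputed under the alternatives, 65 stayed within their interval or, for counts, within 1.5 times. The ratio of every window did so under all 7 alternatives: 1.06 to 1.21 for Tbx21, 1.23 to 1.55 for Stat4, 1.34 to 1.80 for Il12rb2, 0.781 to 0.853 for Runx3 and 1.01 to 1.4 for Eomes. Whether its own interval included 1 changed for Stat4 (0.923 to 1.66) and Il12rb2 (0.964 to 2.07) with plus-strand reads, which then did, and for Eomes (1.21 to 1.63) with all reads as deposited, which then did not. In place of 1 enriched bin, 19 were called with all reads as deposited. That setting counts the copies of a position as independent and calls 1.76% of covered bins. With a lower bound above 1, 7 were called, against 0.409% of covered bins. With IgG over 11 bins 12 were called, against 1.35% of covered bins, and the Runx3 bin called otherwise was not among them. The number was 0 with reads not moved (0.0538% of covered bins called), plus-strand reads (0.00626%) and minus-strand reads (0.00636%). It was also 0 with thinned H3KAc (0.0621%), a lower bound above 4 (0.00120%) and 500-bp bins (0.0164%). With IgG scaled by background bins it was 1 (0.0431%). At shares this low, a count of 0 or 1 does not set the windows apart from the genome. The 24 high bins became 13 with thinned H3KAc and 113 at the 95th percentile. They became 1 where the threshold was raised to 130 positions, reached by 1 bin in 1000. Under the other alternatives in 1-kb bins they numbered 18 to 22, each with its own threshold. With 500-bp bins 35 were high, at a threshold of 27 positions. Those bins are smaller and more numerous, so 35 is not comparable with 24, although it counts among the 65. The level of the highest bin left its interval with thinned H3KAc at Tbx21 (3.16 RPM), Stat4 (4.22 RPM) and Runx3 (3.69 RPM). It also did so at Il12rb2 with plus-strand (4.33 RPM) and minus-strand reads (2.15 RPM). With thinned H3KAc Il12rb2 was at 3.16 RPM and Eomes at 5.80 RPM, so the order of the windows changed. Thinning was a single random draw that leaves few reads per bin, so no order is read from it, and other causes were not tested. With 1 library of each kind, library-to-library variation is unknown.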

Other observations

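The bins with most IgG reads lay outside the runs of high bins. In the Runx3 window the bin from 134731001 had 39 positions in H3KAc against 13 in IgG and a ratio of 0.289 (0.151 to 0.590), and in the Tbx21 window the bin from 96931001 had 21 positions in H3KAc against 9 in IgG and a ratio of 0.225 (0.0986 to 0.557). At Eomes the bin from 118397001 had 17 positions in H3KAc against 6 in IgG and a ratio of 0.273 (0.103 to 0.845). These bins were chosen for high IgG, which lowers their ratios. At Stat4, bins from 52035001 and 52082001 had 17 and 21 H3KAc positions and 5 IgG positions each, and at Il12rb2 the bin from 67242001 had 10 H3KAc and 4 IgG positions.

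Across bins within a window, Spearman's rho between H3KAc and IgG counts was 0.42 at Tbx21 (70 bins), 0.40 at Runx3 (120) and Eomes (60), 0.37 at Il12rb2 (110) and 0.27 at Stat4 (160). Neighbouring bins share their surroundings, and both libraries share sequence composition and mappability, so these are descriptions only.

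Repeated reads, counted once in all levels above, were fewer in H3KAc than in IgG in every window. The same held over the whole libraries, at 1.11 reads per position in H3KAc and 4.02 in IgG, so this is not particular to the windows. The removed copies came to between 3.30 and 16.6 per 1000000 deposited reads in H3KAc and between 17.1 and 151.7 in IgG.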
